A study of Danio rerio with 6 samples.

Results

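Adrenomedullin is a secreted peptide that dilates vessels and acts on endothelial cells. Its receptor is made of a G protein-coupled receptor, the calcitonin receptor-like receptor encoded by CALCRL, and a small single-pass membrane protein of the RAMP family, which brings the receptor to the cell surface and sets which peptide it binds. With RAMP2 the complex prefers adrenomedullin, and with RAMP1 it prefers calcitonin gene-related peptide. In mammals the pathway raises cyclic AMP through the G protein Gs and is needed for the growth of blood and lymphatic vessels, and the ligand gene is induced by low oxygen. Zebrafish carry a pair of paralogs of the ligand (adma, admb) and of the receptor (calcrla, calcrlb).

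The rows were chosen by name: the 6 gene names adma, admb, calcrla, calcrlb, ramp1 and ramp2, with or without the paralog letter. They matched 5 of the 14211 gene IDs measured. These are ADM ENSDARG00000015263, ADM ENSDARG00000069027, calcrla ENSDARG00000011473, CALCRL ENSDARG00000011571 and ramp2 ENSDARG00000037895. The name table gives both ligand IDs as ADM, so which is adma and which admb was not told apart, and they are called by their IDs. No row carried the name ramp1, which is not analysed here. The family was chosen with the difference of CALCRL between the groups already known. The ligand row ENSDARG00000069027 had also been seen before the choice. The differences of the 5 IDs are therefore given as a description, with no test.

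The samples were ventricle apices of adult zebrafish of strain AB, all cryoinjured by local freezing. Fish of the treated group received RO, a gamma secretase inhibitor, and control fish the DMSO carrier, by peritoneal injection at 24 h and 48 h after injury, and hearts were taken at 72 h. Gamma secretase cleaves Notch receptors and many other membrane proteins. Each library pooled the apices of 3 hearts, with 3 libraries per group, numbered 1, 2 and 3 for DMSO and 2, 3 and 4 for RO, and no uninjured heart was part of these groups. Values are reads scaled per library by the authors, and between 3306018 and 4463303 reads per library stand behind them. The heart muscle list was abundant in every library, with a summed value of its 20 measured IDs from 76319 to 99638. RO replicate 2 lay farthest from the DMSO libraries along the leading principal component, computed from the 1000 genes of highest variance (23.6, against 6.70 and 10.2 for RO replicates 3 and 4). In whole tissue, more cells of a type and more RNA per cell cannot be told apart.

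The ligand row ENSDARG00000015263 varied little. Its values were 19.7, 14.5 and 15.2 in DMSO replicates 1, 2 and 3 and 17.6, 20.4 and 19.0 in RO replicates 2, 3 and 4. The groups overlapped, since DMSO replicate 1 lay above RO replicates 2 and 4. The means were 16.4 ± 2.84 in DMSO and 19.0 ± 1.39 in RO (SD, n = 3 per group here and below). The log2 difference, RO minus DMSO, was 0.21 with a 95% interval of -0.16 to 0.59, on the scale log2(value + 0.5).

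The other ligand row, ENSDARG00000069027, was at 2.43, 3.36 and 3.27 in the DMSO libraries. In RO replicates 2, 3 and 4 it was at 11.45, 6.13 and 3.41. The groups touched without overlapping: RO replicate 4 lay at the level of the DMSO libraries and RO replicate 2 far above them. These values rest on 10 to 13 reads per DMSO library and on 41, 28 and 14 reads in RO replicates 2, 3 and 4. Counting error alone gives 95% Poisson intervals of 1.86 to 5.72 for RO replicate 4 and 8.22 to 15.5 for RO replicate 2. The spread among the RO libraries was beyond counting error, with a chi-square per degree of freedom of 9.36, against 0.346 in DMSO. The means were 3.02 ± 0.512 and 6.997 ± 4.09, a log2 difference of 0.95 (95% interval 0.11 to 1.79). Without RO replicate 2 it was 0.54, and without RO replicate 4 it was 1.35.

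As a share of the reads of both ligand rows, ENSDARG00000069027 held 10.99%, 18.8% and 17.7% in DMSO replicates 1, 2 and 3. It held 39.4%, 23.1% and 15.2% in RO replicates 2, 3 and 4. RO replicate 4 lay within the DMSO range and RO replicates 2 and 3 above it. The summed value of both rows was 19.5 ± 2.33 in DMSO and 26.0 ± 3.36 in RO, with the lowest RO library (22.4) just above the highest DMSO library (22.1).

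**Figure D1:**
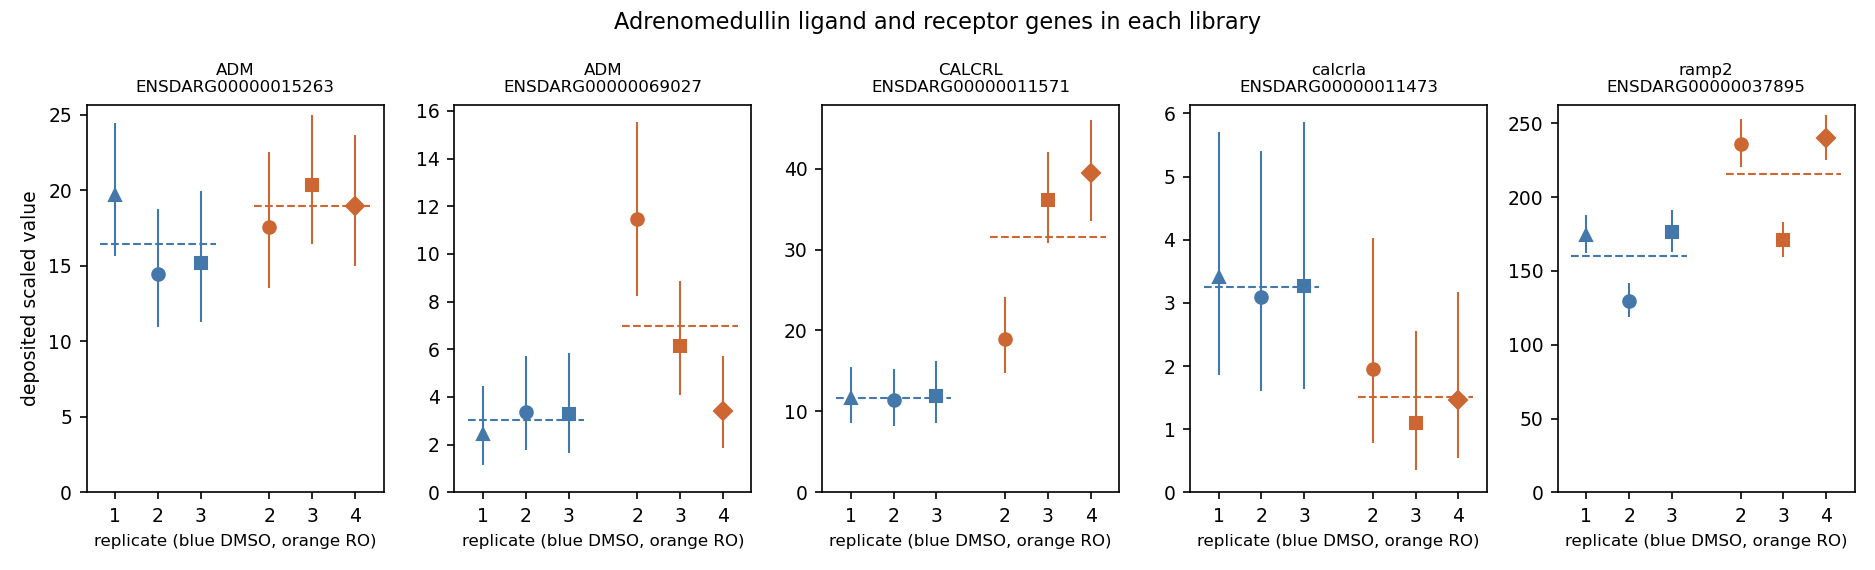
Deposited scaled value (vertical axis, from 0) of each of the 5 gene IDs in each library, DMSO in blue and RO in orange, with the replicate number on the horizontal axis. Bars are 95% Poisson intervals for counting error and dashed lines are group means; CALCRL was at 11.4 to 11.9 in DMSO and 19.0 to 39.4 in RO, while calcrla was lower in every RO library.

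The receptor row CALCRL was nearly constant in DMSO and higher in each RO library. Its values were 11.7, 11.4 and 11.9 in DMSO replicates 1, 2 and 3. They were 19.0, 36.1 and 39.4 in RO replicates 2, 3 and 4. The groups did not overlap, and RO replicate 2 stood between the DMSO libraries and the other RO libraries. The means were 11.6 ± 0.277 and 31.5 ± 10.97, a log2 difference of 1.33 (95% interval 0.80 to 1.87), or 2.52-fold on the log2(value + 0.5) scale. The DMSO libraries differed by less than counting error (chi-square per degree of freedom 0.0240 over 132 reads), and the RO libraries by more (14.1 over 395 reads).

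The paralog calcrla went the other way. It was at 3.40, 3.10 and 3.27 in the DMSO libraries and at 1.96, 1.09 and 1.46 in RO replicates 2, 3 and 4. No RO library reached a DMSO library. Only 11 to 14 reads per DMSO library and 5 to 7 reads per RO library stand behind these values, and the 95% Poisson intervals of single libraries overlap between groups (1.86 to 5.71 in DMSO replicate 1 and 0.786 to 4.03 in RO replicate 2). The means were 3.26 ± 0.154 and 1.503 ± 0.432, a log2 difference of -0.93 (95% interval -1.70 to -0.16). Summed over the libraries of a group, calcrla had 37 reads in DMSO and 18 in RO.

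Of the reads of both receptor rows, CALCRL therefore held 77.4%, 78.6% and 78.4% in DMSO replicates 1, 2 and 3, and 90.7%, 97.1% and 96.4% in RO replicates 2, 3 and 4. The DMSO shares were close together, and each RO share was above all of them. The 95% Clopper-Pearson interval of RO replicate 2, 81.7% to 96.2%, still overlapped those of the DMSO libraries, which reached up to 88.7%. Those of RO replicates 3 and 4 began at 93.3% and 92.4%. The summed value of both receptor rows was 14.9 ± 0.393 in DMSO and 33.0 ± 10.6 in RO. These shares compare reads and are not corrected for transcript length, and reads that fit both paralogs could have been split between them.

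**Figure D2:**
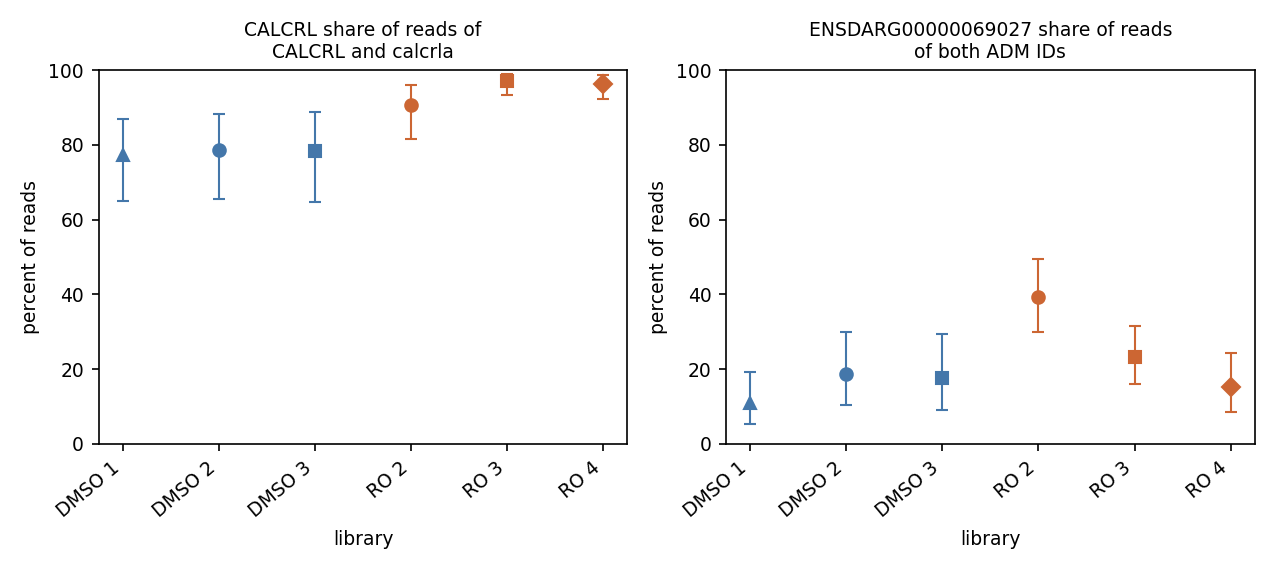
Share of reads in percent (vertical axis) per library, for CALCRL among the reads of CALCRL and calcrla (left) and for ENSDARG00000069027 among the reads of both ADM IDs (right). Bars are 95% Clopper-Pearson intervals for counting error; the CALCRL share was 77.4% to 78.6% in DMSO and 90.7% to 97.1% in RO, while the shares of the ADM ID overlapped between groups.

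The accessory gene ramp2 had the most reads of the family, 503 to 987 per library, so counting error is small for it. It was at 175, 130 and 177 in DMSO replicates 1, 2 and 3 and at 236, 171 and 240 in RO replicates 2, 3 and 4. RO replicates 2 and 4 lay above the DMSO libraries, and RO replicate 3 between them. The means were 160 ± 26.4 and 216 ± 38.8, a log2 difference of 0.43 (95% interval 0.068 to 0.78). It ranged from 0.28 without DMSO replicate 2 to 0.58 without RO replicate 3. The libraries of both groups differed by more than counting error, with a chi-square per degree of freedom of 16.6 in DMSO and 30.5 in RO.

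The RO libraries thus ranked differently for each gene. RO replicate 2 was the lowest for CALCRL and ENSDARG00000015263 and the highest for ENSDARG00000069027 and calcrla. RO replicate 3 was the lowest for ramp2. For ENSDARG00000015263 and calcrla the RO libraries differed by less than counting error (chi-square per degree of freedom 0.406 and 0.506). Nothing is read from their order. Of the 5 IDs, 2 were higher in every RO library than in any DMSO library (CALCRL and ENSDARG00000069027) and 1 was lower (calcrla). Among all 14211 IDs, 9.32% lay apart in the first way and 9.35% in the second. CALCRL was 1 of the 147 IDs, 1.03% of all, that passed an adjusted p of 0.05 in the limma-trend fit over all IDs. Leaving out DMSO replicate 1 or 2 reduced that number to 59 or 22, leaving out RO replicate 2 or 3 reduced it to 95 or 52, and it was 1 when limma was run without its mean-variance trend. Since the choice of the family used that call, nothing is read from these counts. The median log2 difference of the 5 IDs was 0.43, and that of all IDs -0.010. All 5 were above a value of 1 in all 6 libraries.

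**Figure D3:**
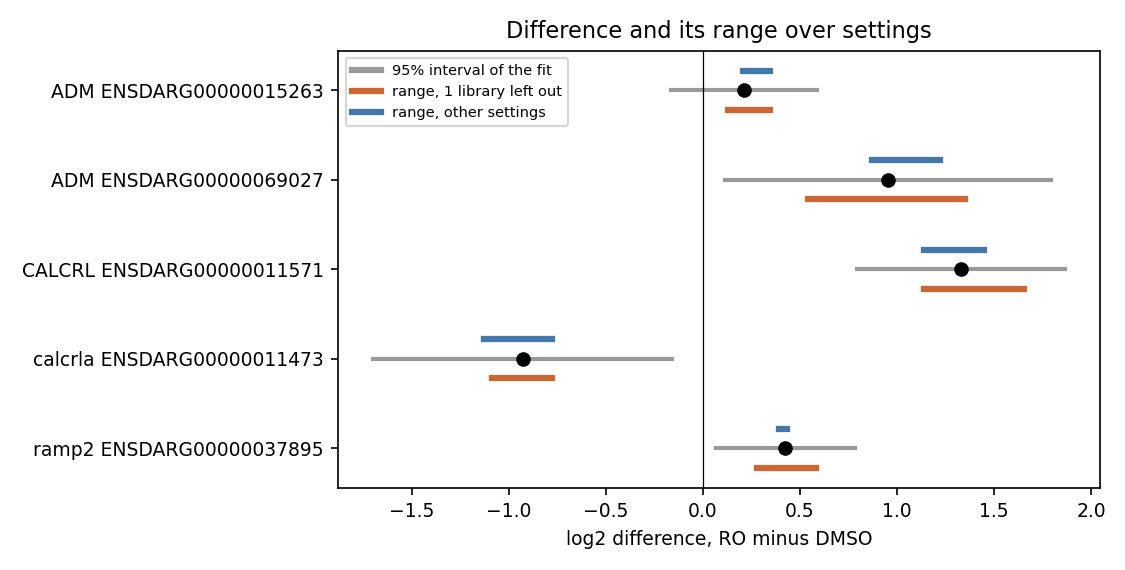
Log2 difference, RO minus DMSO, of each gene ID (black point) with the 95% interval of the fit (grey), the range with 1 library left out (orange) and the range over the other settings (blue). CALCRL ran from 1.14 to 1.66 with 1 library left out, and calcrla from -1.09 to -0.78.

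CALCRL and RAMP2 are known from endothelial cells, whose markers differed among themselves between the groups. Of 25 measured IDs of the endothelial and endocardial list, 20 had a log2 difference above 0, with a median of 0.23. At an unadjusted p below 0.05 in the limma-trend fit were 9, against 1905 of all 14211 IDs. At the threshold 2 rose, where 0.647% of all IDs did. The first, flt1, encodes a VEGF receptor. Its means were 67.4 ± 9.80 with DMSO and 119 ± 21.0 with RO (limma-trend, adjusted p = 0.0356). The second, plvapb, encodes a protein of the diaphragms of vessel walls, and was at 27.2 ± 2.40 and 45.8 ± 2.59 (adjusted p = 0.0302). The call of flt1 was kept only without DMSO replicate 1 (adjusted p from 0.0627 to 0.121 when another library was left out). The call of plvapb was kept only without DMSO replicate 3 or RO replicate 2 (0.0550 to 0.121 otherwise). Quantile normalization ended the call of flt1 (adjusted p = 0.0534). The list had 3 calls with edgeR, 4 with DESeq2 and 5 with the replicate number as a block. Over all 14211 IDs these settings called 156, 227 and 405. Widely used endothelial markers, named after their values were seen, overlapped between groups: cdh5, the endothelial cadherin gene, was at 89.5 ± 7.33 in DMSO and 84.4 ± 26.7 in RO, and KDR, another VEGF receptor gene, at 72.0 ± 11.4 and 82.0 ± 27.8. Of the 25 IDs, 8 were higher in each RO library than in any DMSO library, among them flt1 and plvapb, and 1 was lower. Among all IDs, 9.32% and 9.35% lay apart in these ways. The lower one was the transcription factor gene GATA2, also named after its values were seen. It was at 17.4 ± 1.21 in DMSO and 11.9 ± 2.62 in RO (limma-trend, adjusted p = 0.231).

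The summed value of that list was 2303, 2041 and 2000 in DMSO replicates 1, 2 and 3, and 2563, 2608 and 2729 in RO replicates 2, 3 and 4. The sum weighs abundant rows most. The most abundant, AQP8, was at 484 ± 156 in DMSO and 712 ± 131 in RO, with overlap. Set against this sum, CALCRL stood at 5.07, 5.56 and 5.95 per 1000 in DMSO and at 7.41, 13.9 and 14.4 per 1000 in RO. The groups did not overlap in this ratio. It uses the CALCRL values known when the family was chosen and is a description. For calcrla the ratio was 1.54 ± 0.0831 per 1000 in DMSO and 0.573 ± 0.174 in RO. It could not overlap, since calcrla was lower and the sum higher in each RO library than in any DMSO library. For ramp2 the ratio was 75.8, 63.6 and 88.3 per 1000 in DMSO and 92.2, 65.6 and 88.0 in RO, which overlapped.

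**Figure D4:**
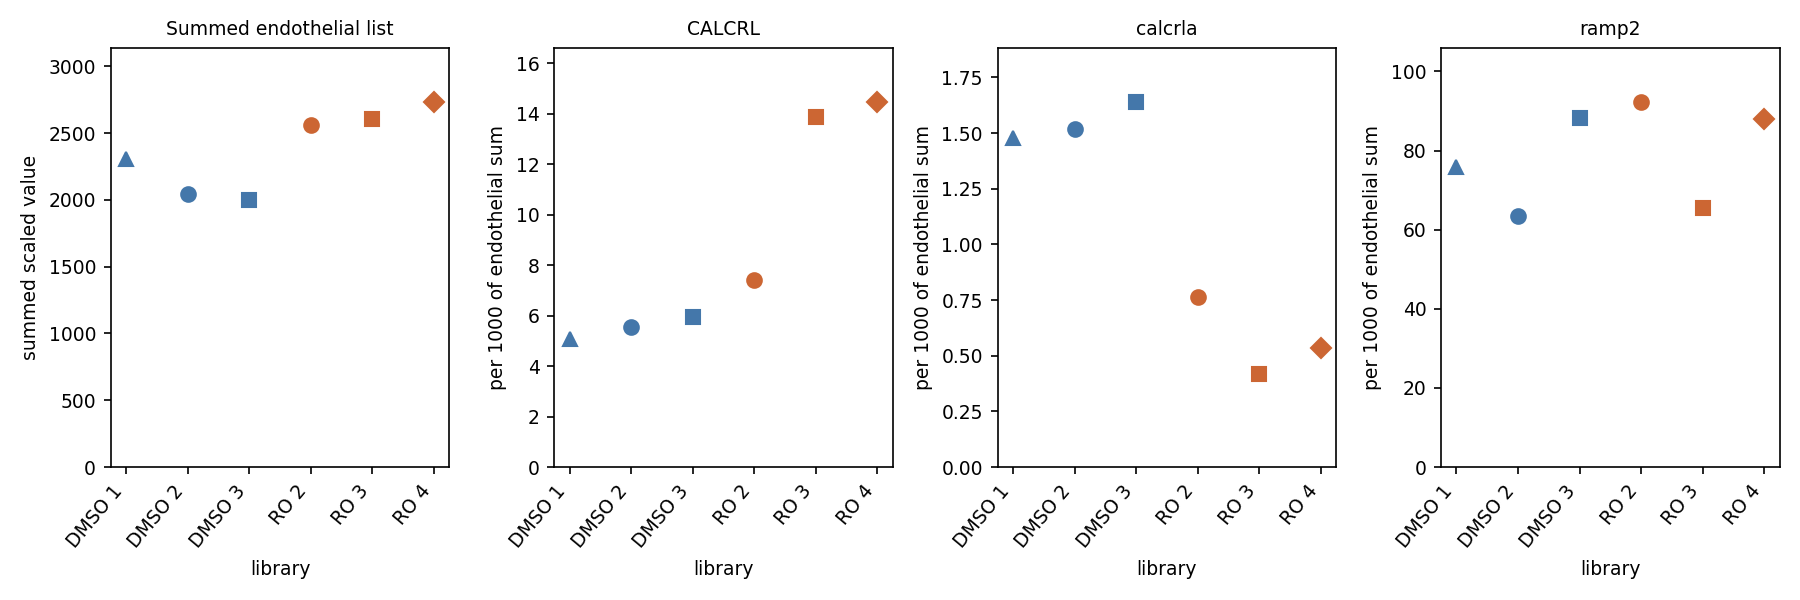
Summed scaled value of the 25 endothelial and endocardial IDs per library (left), and CALCRL, calcrla and ramp2 per 1000 units of that sum, DMSO in blue and RO in orange. CALCRL was at 5.07 to 5.95 per 1000 in DMSO and 7.41 to 14.4 in RO, while ramp2 overlapped between the groups.

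A list drawn up for lymphatic endothelium, where adrenomedullin signalling is required in mammals, was not higher as a whole. Of 14 measured IDs, 11 lay below 0, the median log2 difference was -0.21, and none passed with limma-trend, edgeR or DESeq2. The listed names flt4, lyve1a, lyve1b and pdpn matched no measured ID, and measured ones such as tek and TIE1 are not particular to lymphatic vessels. The list is therefore no measure of lymphatic cells. Of the 14 IDs, 2 lay apart with RO higher and 3 with RO lower, where 9.32% and 9.35% of all IDs did. At an unadjusted p below 0.05 in the limma-trend fit were 6, against 1905 of all 14211 IDs. The angiopoietin receptor gene tek and the related receptor gene TIE1, the most abundant, had log2 differences of -0.043 and -0.28 (limma-trend, adjusted p = 0.920 and 0.331). The sign of tek changed when DMSO replicate 2 or RO replicate 3 was left out. The summed value ran from 694 to 802 in DMSO and from 640 to 695 in RO.

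Lists of other cell types differed in how far their sums overlapped between the groups. The summed macrophage and neutrophil list ran from 2413 to 2555 in DMSO and from 2905 to 3938 in RO, with 21 of 25 IDs above 0. The thrombocyte list ran from 190 to 237 in DMSO and from 253 to 392 in RO, with 9 of 11 IDs above 0 and 1, the integrin activator gene FERMT3, higher at the threshold, which 0.647% of all IDs were (8.70 ± 0.773 against 17.7 ± 3.68, limma-trend, adjusted p = 0.0468). That call was kept only without RO replicate 4. The epicardial and fibroblast list ran from 11003 to 13295 in DMSO and from 9015 to 11169 in RO, with 15 of 21 IDs below 0. The median log2 differences of these 3 lists were 0.25, 0.49 and -0.45. The most abundant macrophage and neutrophil IDs, LGMN and CTSD, were at 380 ± 11.4 and 382 ± 25.4 in DMSO. In RO they were at 533 ± 106 and 520 ± 99.0 (limma-trend, adjusted p = 0.152 and 0.191). The most abundant epicardial and fibroblast IDs, COL1A1 and col1a1a, were at 2133 ± 165 and 2068 ± 148 in DMSO. In RO they were at 1479 ± 345 and 1422 ± 344 (limma-trend, adjusted p = 0.169 and 0.164). No macrophage or fibroblast ID passed with limma-trend or edgeR. DESeq2 called 1 macrophage, 3 fibroblast and 3 thrombocyte IDs, against 227 of all 14211 IDs. In the macrophage and neutrophil list 8 IDs lay apart with RO higher and 0 with RO lower. In the thrombocyte list 4 and 0 did, and in the epicardial and fibroblast list 2 and 9. In the heart muscle list 1 and 1 did, and in the erythrocyte list 0 and 0. Among all IDs, 9.32% and 9.35% lay apart in these ways. Of the 25 macrophage and neutrophil IDs 9, and of the 21 epicardial and fibroblast IDs 11, were at an unadjusted p below 0.05. So were 5 of the 11 thrombocyte IDs and 2 of the 20 heart muscle IDs. Among all 14211 IDs, 1905 were. The heart muscle list had 5 of 20 IDs above 0, a median of -0.14 and 1 call upward, against 0.647% of all IDs, the myosin heavy chain gene MYH6 ENSDARG00000079564, at 674 ± 93.3 against 1074 ± 116 (limma-trend, adjusted p = 0.0454), whose call was kept only without RO replicate 2 and was lost with quantile normalization (0.0547) and the replicate block (0.0570). The erythrocyte list ran from 974 to 1907 in DMSO and from 893 to 1902 in RO (8 IDs, median -0.13), with none past the threshold in limma-trend, edgeR or DESeq2 and 0 at an unadjusted p below 0.05. Its most abundant IDs, hbaa1 and SPTB, overlapped between groups, at 840 ± 249 and 211 ± 29.6 in DMSO. In RO they were at 944 ± 418 and 195 ± 26.7 (limma-trend, adjusted p = 0.918 and 0.796). No ID of these 7 cell type lists was at 0 in any library. Whether these lists account for any part of the values of the adrenomedullin genes was not tested.

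The rest of the calcitonin peptide family, listed with the peptides VIP and PACAP and their receptors, was sparse. Of 16 names, 3 were measured: adm2a, a ligand of the same family, CRCP, which couples the receptor to its signalling, and adcyap1b, which encodes PACAP. None passed with limma-trend, edgeR or DESeq2, and none was at an unadjusted p below 0.05, where 1905 of all 14211 IDs were. The ligand adm2a was at 9.48, 4.13 and 6.55 in the DMSO libraries and at 6.98, 8.76 and 5.11 in RO replicates 2, 3 and 4, with full overlap. CRCP was at 4.62, 4.90 and 4.17 in DMSO and at 6.14, 5.91 and 8.03 in RO, with no overlap, a log2 difference of 0.50 and an adjusted p of 0.407 in the limma-trend fit.

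The enzymes that cut and clear the peptides, listed with the receptor genes ACKR3 and GPR182, did not pass either. There were 12 measured IDs, 8 above 0 and 4 below, with a median log2 difference of 0.055. None passed with limma-trend, edgeR or DESeq2. Where 1905 of all 14211 IDs were at an unadjusted p below 0.05, 1 ID of this list was. This was CPD, a carboxypeptidase that trims cut prohormones, with means of 66.4 ± 9.36 with DMSO and 84.7 ± 2.54 with RO (adjusted p = 0.253). The scavenging receptor gene ACKR3, which takes up adrenomedullin in mice, was at 46.9, 39.2 and 38.1 in DMSO and 47.5, 48.0 and 56.7 in RO (limma-trend, adjusted p = 0.391). GPR182 had the lowest log2 difference of the list, -0.48, and overlapped between groups (limma-trend, adjusted p = 0.570). The insulin-degrading enzyme gene IDE and the endothelin-converting enzyme gene ECE1 had log2 differences of -0.024 and 0.18 (limma-trend, adjusted p = 0.965 and 0.659).

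Downstream of the receptor, the list of Gs and cyclic AMP signalling had 38 measured IDs, 21 above 0 and 17 below, with a median of 0.047. An unadjusted p below 0.05 in the limma-trend fit was reached by 8 of the 38, against 1905 of all 14211 IDs. In this list 1 ID passed, upward, where 0.647% of all IDs did. It was NR4A3, a nuclear receptor gene without a known ligand that is switched on early after stimuli. It was at 9.48, 15.5 and 61.3 in the DMSO libraries and at 133, 157 and 139 in the RO libraries, a log2 difference of 2.74 (limma-trend, adjusted p = 0.0323). The call was kept without DMSO replicate 3 and lost without any other library, with adjusted p from 0.0646 to 0.119, and it was also lost with robust empirical Bayes (0.271) and with DESeq2 (0.0933). NR4A1, of the same class, was at 208 ± 47.2 and 170 ± 40.3 (limma-trend, adjusted p = 0.573). The anchoring protein gene akap12b, the small GTPase gene rap1b and the gene pde4dip, which encodes a partner of a phosphodiesterase, had log2 differences of 0.31, 0.28 and -0.23 and did not pass (limma-trend, adjusted p = 0.406, 0.348 and 0.649).

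Other vasoactive systems gave 1 call among 19 IDs, downward, where 0.387% of all IDs passed in that direction. The vasopressin receptor row AVPR1A ENSDARG00000045788 was at 11.4, 22.5 and 16.1 in DMSO and at 5.03, 7.23 and 4.38 in RO (log2 difference -1.48, limma-trend, adjusted p = 0.0329). Its call was lost without DMSO replicate 2 or 3 or RO replicate 2 or 4, with adjusted p up to 0.121. A more abundant AVPR1A row, ENSDARG00000077083, overlapped between groups, at 39.7 ± 2.47 in DMSO and 35.8 ± 7.55 in RO. Its log2 difference was -0.17 (limma-trend, adjusted p = 0.723). The median of the list was -0.20, with 7 IDs above 0 and 12 below. An unadjusted p below 0.05 in the limma-trend fit was reached by 9 of the 19, against 1905 of all 14211 IDs. The natriuretic peptide genes nppa and nppb overlapped between groups, at 3514 ± 727 and 377 ± 146 in DMSO and 4278 ± 343 and 519 ± 158 in RO (limma-trend, adjusted p = 0.504 and 0.457). Their relative nppc, named after its values were seen, did not overlap, at 23.3, 8.78 and 12.2 in DMSO and at 42.7, 42.0 and 29.0 in RO (log2 difference 1.42, limma-trend, adjusted p = 0.0518). The clearance receptor gene NPR3, named in the same way, did not overlap either, at 1.89 ± 0.883 and 5.62 ± 1.52 (limma-trend, adjusted p = 0.123). Of the 19 IDs, 3 lay apart with RO higher and 4 with RO lower, where 9.32% and 9.35% of all IDs did. Among the lower was AGTR2, an angiotensin receptor gene, named in the same way. It was at 10.1 ± 2.43 in DMSO and 4.29 ± 0.472 in RO (limma-trend, adjusted p = 0.0652). The endothelin receptor rows EDNRA and ednrab had log2 differences of -0.41 and -0.54 (limma-trend, adjusted p = 0.151 and 0.293).

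Among genes of the response to low oxygen, which in mammals includes the adrenomedullin gene, 2 of 29 IDs rose, where 0.647% of all IDs did, and both encode prolyl hydroxylases that act on hypoxia-inducible factors. EGLN3 was at 15.1, 11.6 and 8.04 in DMSO and at 28.8, 45.8 and 38.9 in RO (log2 difference 1.68, limma-trend, adjusted p = 0.00964). EGLN2 was at 12.2, 7.48 and 8.93 in DMSO and at 17.6, 23.2 and 18.5 in RO (log2 difference 1.03, limma-trend, adjusted p = 0.0468). For EGLN3, as for CALCRL, RO replicate 2 was the lowest RO library, whereas it was the highest for the ligand row ENSDARG00000069027. Whether low oxygen had any part in these values was not tested. The call of EGLN3 was lost without DMSO replicate 2 (adjusted p = 0.0548), and that of EGLN2 was kept only without DMSO replicate 1 (adjusted p up to 0.177 otherwise), and lost with quantile normalization (0.0534). The list had 3 calls with robust empirical Bayes, 2 with edgeR, 4 with DESeq2 and 5 with the replicate number as a block. Over all 14211 IDs these settings called 180, 156, 227 and 405. The list as a whole had 16 IDs above 0 and 13 below, with a median of 0.055. An unadjusted p below 0.05 in the limma-trend fit was reached by 11 of the 29, against 1905 of all 14211 IDs. There were 8 IDs apart with RO higher and 3 with RO lower, where 9.32% and 9.35% of all IDs lay apart.

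**Figure D5:**
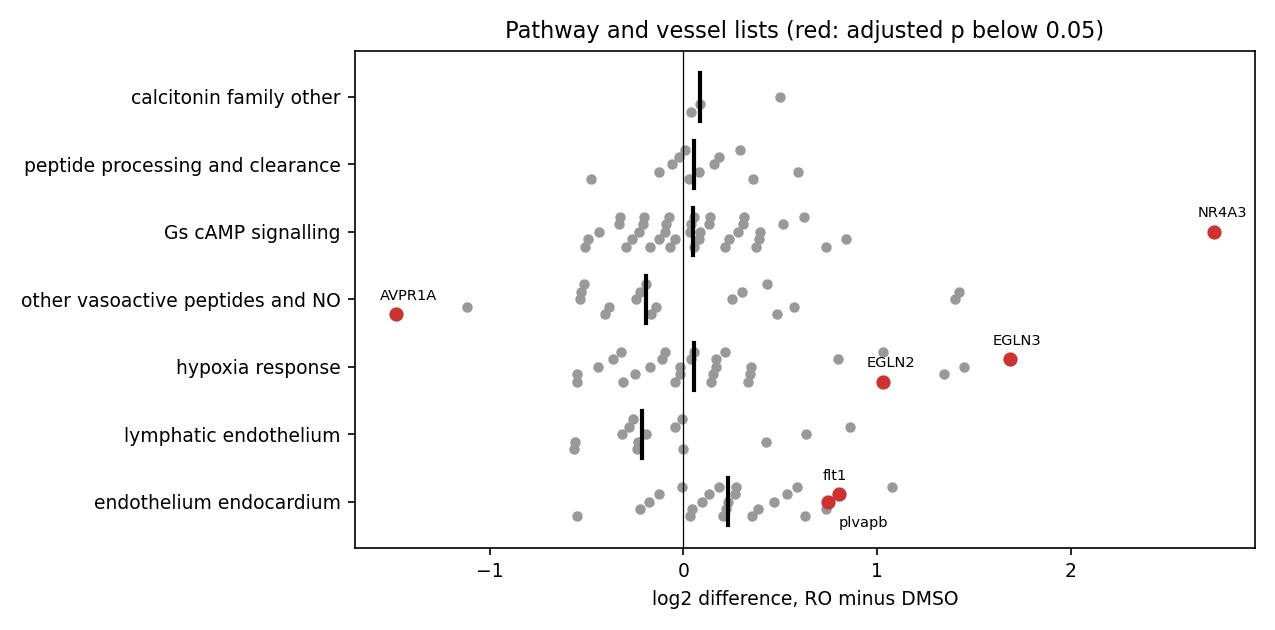
Log2 difference, RO minus DMSO (horizontal axis), of each measured ID of 7 lists, with the list median as a black bar and IDs at an adjusted p below 0.05 in red. The peptide family, the processing and clearance list and the lymphatic list hold no red point, and NR4A3 at 2.74 and AVPR1A at -1.48 stand at the ends.

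The IDs most like each adrenomedullin gene over the 6 libraries were found by Pearson's r of log2(value + 0.5) among 9586 IDs with a symbol and a mean of at least 5. These r are descriptions over 6 points that share libraries and the contrast between groups. Picking the highest of 9586 by itself favours high r. Within both groups the calcrla libraries differed by less than counting error, as did the RO libraries of ENSDARG00000015263. Nothing is read from the IDs matched to calcrla or ENSDARG00000015263. For CALCRL they were CFL2, PPP4C, ACSL4, HAAO and si:dkey-178e17.3, with r from 0.984 to 0.996. Among these ACSL4, which activates long-chain fatty acids, had the largest difference, with means of 39.8 in DMSO and 92.8 in RO. CFL2 encodes a muscle cofilin and PPP4C a phosphatase subunit, and their log2 differences were 0.13 and 0.37. For calcrla they were pcolcea, si:dkey-182i3.10, IGHMBP2, RAB40C and GMCL1 (r from 0.988 to 0.994), of which pcolcea, related to an enhancer of collagen processing, had means of 62.4 and 46.3. For ramp2 they were GEMIN7, LTB4R, perm1a, WWC3 and WTAP (0.973 to 0.980). For ENSDARG00000069027 they were NUTF2, ARID4B, tnikb, pom121 and ATP2A3 (0.990 to 0.994), and for ENSDARG00000015263 NUP188, ADIPOR1, YME1L1, COG7 and dtx3lb.2 (0.969 to 0.980). No ID stood in more than 1 of these 5 groups.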

How the data were processed

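RNA of 6 pooled apex libraries was measured by sequencing of polyA RNA (TruSeq kit, per the labels' protocols). The authors deposited 1 table of a scaled signal per gene ID and library. Per the submitters' processing notes, the tools were RSEM 1.2.3, Bowtie2 2.0.6, edgeR, cutadapt 1.6.1 and CASAVA 1.8 and the build Zv9, with no role given for each. Annotation release and strandedness were not given in the sources used here. In each library 100% of the values were whole reads within 0.01 read once divided by 1 step, and they equal TMM-scaled CPM of these reads, as deposited. Reads of overlapping genes or of near-identical paralogs could not be told apart. In RefSeq GRCz12tu, calcrla, calcrlb, admb and ramp2 are each overlapped by 1 long noncoding RNA gene.

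Names were looked up by ID (11589 of 14211 IDs). The design allowed for counts or scaled values. The values being scaled, the fit used limma 3.58.1 (limma-trend, R 4.3.3) on log2(value + 0.5), RO minus DMSO, over all IDs, with Benjamini-Hochberg adjustment and a threshold of 0.05. A minimum value of 1 in 3 libraries removed no ID. Fold changes on this scale understate those of low genes. The labels give each replicate as a pool of its own, and no library repeated another (chi-square per degree of freedom of 5.01 to 11.7 within groups). Intervals on reads cover counting error only, at 95%.

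There were 13 lists with 352 symbols, of which 229 matched, by name or without the paralog letter. The named genes are all family IDs; for the peptide, processing, Gs and vasoactive lists the passing IDs and the 4 of highest mean; for other lists up to 4 passing IDs or the 2 of highest mean; and the 5 IDs of most like pattern. Outside this rule, cdh5, KDR, both CLDN5 IDs, GATA2, AQP8, GPR182, AVPR1A ENSDARG00000077083, AGTR2, nppc and NPR3 were named after their values were seen. The family, the lists and the tests were chosen with earlier results of these data known. Alternatives changed the pseudocount, the minimum value, the scaling or the limma settings, added the replicate number as a block, left out each library, or tested the recovered reads with DESeq2 1.42.0 or edgeR 4.0.16.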

Additional observations from a re-analysis of the deposited data

How the results depend on the processing

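All 5 adrenomedullin gene IDs kept the sign of their difference under each alternative that gave a value. Leaving out a library could not turn the sign for CALCRL, calcrla or ADM ENSDARG00000069027, whose groups did not overlap. No setting other than leaving out a library moved a difference by more than the spread between libraries. Leaving out 1 of 3 libraries could not move it that far, so those runs do not bear on this. Changing the minimum value, TMM scaling, and the robust and trend options of limma could not change a difference or its sign. Those settings do not bear on it either. At a minimum of 5 in 3 libraries, calcrla and ADM ENSDARG00000069027 gave no value. Over the settings other than leaving out a library, CALCRL ran from 1.14 to 1.45, calcrla from -1.13 to -0.78 and ramp2 from 0.39 to 0.43. With 1 library left out, the count of calls over all IDs ran from 22 to 105, that of the 5 pathway lists from 0 to 5 and that of the 7 cell type lists from 0 to 4. The counts over all IDs, the pathway lists and the cell type lists were 147, 4 and 4 as reported, 1, 0 and 0 in limma without the mean-variance trend, an alternative added after seeing the data, and 227, 7 and 12 with DESeq2; quantile normalization left 2 calls in the cell type lists. With the replicate number as a block they were 405, 12 and 14. Only numbers 2 and 3 are shared by the groups, the labels do not say that they mark a shared origin, and the deviations of same-numbered libraries correlated at 0.116 and 0.0913. Leaving out a library turned the sign of uncalled differences of adm2a (-0.20 to 0.35), adcyap1b (-0.34 to 0.43), IDE (-0.16 to 0.075), tek (-0.13 to 0.037) and hbaa1 (-0.21 to 0.47), and the block that of hbaa1 (-0.0023). The causes were not tested. Depth limits calcrla and ENSDARG00000069027 most, at 5 to 41 reads per library.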
